A study of Homo sapiens with 3 samples.

Results

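SLC34A1, PFN3, F12, PRR7 and DBN1 are 5 protein-coding genes that lie side by side on the long arm of chromosome 5, between 177384434 and 177473634 in hg38, with 1 further protein-coding gene, GRK6, between F12 and PRR7. They were chosen by gene body, because loops that the authors classed as lost had been seen to join them, and they are 5 of 9909 protein-coding genes with an end of a listed loop. Hi-C, a sequencing assay of which stretches of DNA lie close to each other in fixed nuclei, was run on HCT116, a human colorectal carcinoma cell line. There were 3 libraries, with 1 in each group. The first group was ORC2B2, a single clone in which ORC2 had been deleted with CRISPR/Cas9. The second was the ORC2 rescue, cells selected as a clone after ORC2 with its untranslated regions was returned on the pLHCX vector. The third was the parental line, which is called wild-type although it is p53-/-, and the other groups share that background. ORC2 encodes one part of the origin recognition complex, a DNA-binding assembly that licenses sites for the start of replication.

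The authors' deposited table gives each loop as a left position, a right position and 1 of 3 class words. These are conserved gain (gained, below), conserved lost (lost) and not conserved. It does not name the libraries behind a gain or a loss, so a lost loop cannot be assigned to the deletion, the rescue or the wild-type cells. Nor does the table hold a contact count, so depth is unknown and no test between the groups was possible. The meaning of conserved is not given either. A not conserved loop therefore cannot be read as a loop that was kept, and the lost shares below are shares of listed loops. Because the genes were chosen for their lost loops, the class counts below describe them and test nothing. Intervals are 95% Wilson intervals. They cover only counting error and would hold for independent loops, which neighbouring loops are not.

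A chromatin loop brings sites that are far apart along a chromosome close together. Many loops form where cohesin extrudes DNA until it meets the boundary protein CTCF, and others join promoters to enhancers. The 5 genes have unlike roles. SLC34A1 encodes the sodium-phosphate cotransporter that recovers phosphate in the kidney proximal tubule. F12 encodes coagulation factor XII, a liver-secreted zymogen that starts the contact pathway of clotting. PFN3 encodes a testis profilin, a small actin-binding protein. PRR7 encodes a transmembrane adaptor found at synapses, and DBN1 encodes drebrin, which binds actin filaments and is abundant in dendritic spines. None of them is a marker of the colon.

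The gene starts are shown because loop ends were assigned to genes, and because Hi-C can only ligate chromatin at the cut sites of its enzyme, DpnII, which reads GATC. RefSeq (GRCh38.p14) gave promoter windows for 4 of the 5 genes, and PFN3 is named only. For the 3 genes whose listed start is the edge of the gene body, the 30 bases just before the start read as follows, 5′ to 3′ on the gene's own strand, with GATC in capitals.
SLC34A1 (plus strand, chr5:177384404-177384433): ataaagaggagggtctcagttctcctcagg
F12 (minus strand, chr5:177409565-177409594): caagacctttggccagtcctattGATCtgg
DBN1 (minus strand, chr5:177473635-177473664): ccctcccccggccgctggctcgctcggctc
F12 has a DpnII site from 7 to 4 bases before its start, and the other stretches have none.
Over the 300-base windows, from 250 bases before to 50 after each start, GATC (its own reverse complement) was found at the F12 start and at 1 of 3 PRR7 starts. It was not found at the SLC34A1 start or at either DBN1 start. Of all 35116 RefSeq promoter windows, 41.7% hold it. The GC box GGGCGG, searched on both strands, was found 5 and 6 times at the DBN1 starts, 1 time at 1 PRR7 start and not at F12 or SLC34A1. It is in 44.95% of all windows, and none of these 7 windows held both it and GATC. The DBN1 windows were 81.3% and 75.3% G or C, the PRR7 windows 78.3%, 75% and 60.7%, the F12 window 54.7% and the SLC34A1 window 55.3%, against a median of 58.7% over all windows.

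At the 5 genes together, 199 distinct loops were listed, of which 25 were lost, 0 were gained and 174 were not conserved. The lost share was 12.6% (8.66 to 17.9%), while 0.196% of all 279618 listed loops were lost and 0.187% of those elsewhere. The cluster thus held 0.0712% of the listed loops and 4.56% of the lost ones, and 49.02% of the 51 lost loops on chromosome 5. The background for gained loops was 1.96% of all listed loops. Finding 0 among 199 allows a gained share of up to 1.51% (3 counts), if loops were independent. They are not, and a loop classed as lost cannot also be gained. The limit therefore does not show that gained loops are rarer here than elsewhere.

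F12 had the highest lost share of the 5 genes. Of its 35 listed loops, 12 were lost (34.3%, 20.8 to 50.8%). PRR7 had the most lost loops, 18 of 67 (26.9%, 17.7 to 38.5%). At PFN3, a gene of only 553 bp, 4 of 17 listed loops were lost (23.5%, 9.56 to 47.3%). All 4 start in the one 5 kb end that PFN3 shares with the edge of the F12 gene body, so they are also counted at F12. SLC34A1 had 10 lost of 65 (15.4%, 8.58 to 26.1%). DBN1 had the most listed loops, 100, and the lowest lost share, 11% (6.25 to 18.6%). The genes share loops, F12 and DBN1 for instance 12 listed and 5 lost ones, so their shares are not independent and were not compared by a test. A lost loop end was present at 1.85% of the 9909 genes with a listed end.

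Of the 6114 genes with at least 10 listed loops, 2.89% had any lost loop, and 4 had a lost share as high as that of F12, F12 included (7 of 6675 with ends read 10 kb inward). The others were CYRIA (22 of 48), SSR4 (27 of 75) and ERCC6 (6 of 17). PGBD3 (3 of 11), PRR7 and IDH3G (18 of 69) came next below F12. A share as high as that of SLC34A1 was found at 17 genes and one as high as that of DBN1 at 29. None of the 5 other genes named here lies on chromosome 5.

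**Figure D1:**
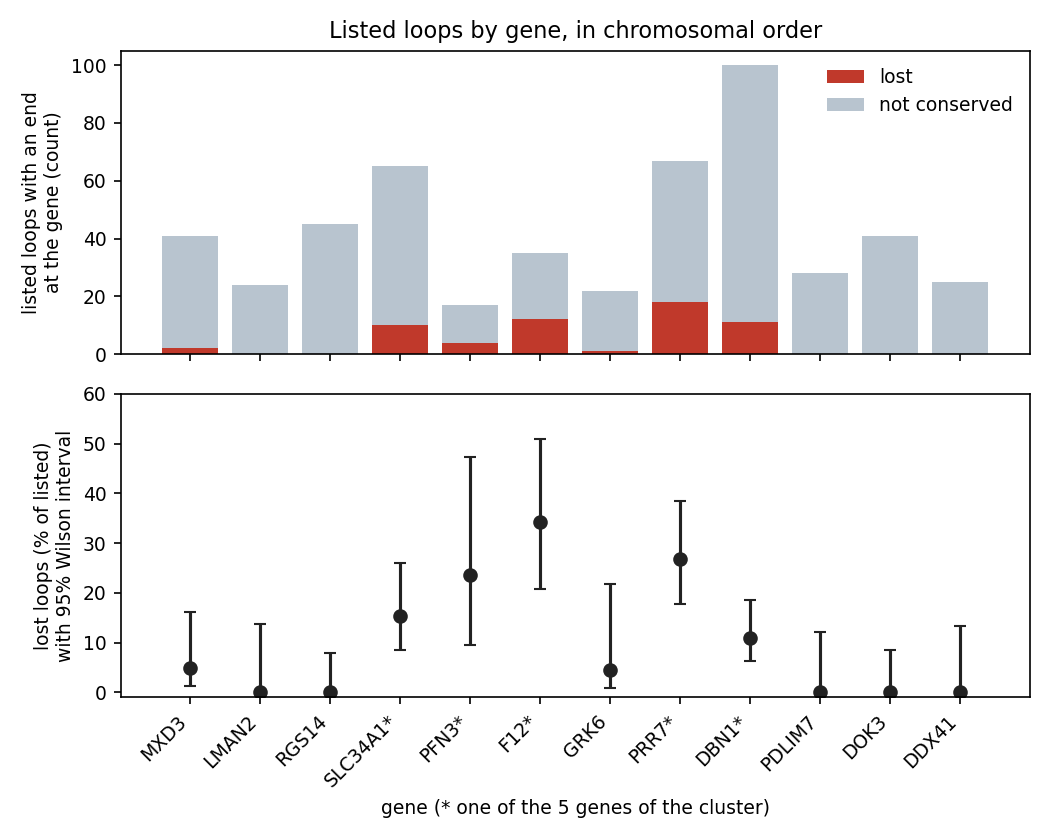
Listed loops at each gene from MXD3 to DDX41 in chromosomal order, as counts by class (upper panel) and as the lost share in percent with its 95% Wilson interval (lower panel). The 5 genes of the cluster have lost shares from 11 to 34.3%, GRK6 between them has 4.55% and MXD3 has 4.88%. RGS14, LMAN2, PDLIM7, DOK3 and DDX41 have no lost loop. Just before MXD3 and not shown, RAB24 has 12.5% (3 of 24), above DBN1, and PRELID1 has 7.14% (2 of 28).

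The 2 sides of the cluster took opposite ends of the lost loops, which for loops between the sides is set by gene order. SLC34A1, PFN3 and F12 were always at the left end (10, 4 and 12 lost loops) and PRR7 and DBN1 always at the right end (18 and 11). All loops listed at PRR7 had it at the right end. DBN1 was at the left end of 15 listed loops, which ran away from the cluster to PDLIM7, DOK3, DDX41 and gene-free ends or stayed within DBN1, and none of these was lost. SLC34A1 was at the right end of 9 listed loops, PFN3 of 2 and F12 of 2, and again none was lost. The genes were chosen because lost loops join them, so the lack of lost loops leading outward follows in part from the choice.

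Pairing by gene showed the lost loops most plainly between F12 and PRR7. All 9 loops listed between F12 and PRR7 were lost (100%, 70.1 to 100%). They run from 42.6 to 60.3 kb and join neighbouring left ends to neighbouring right ends. The left ends on either side, which do not touch the F12 body, also had loops to PRR7 that were not conserved. The 100% thus depends on how ends were assigned to genes, and the pairing was not repeated with other settings. The 3 loops listed between PFN3 and PRR7 were lost as well and are among those 9. Between SLC34A1 and PRR7, 6 of 12 listed loops were lost (50.0%, 25.4 to 74.6%). With DBN1, 5 of 12 loops from F12 were lost (41.7%, 19.3 to 68.0%), 6 of 20 from SLC34A1 (30%, 14.5 to 51.9%) and 2 of 5 from PFN3 (40%, 11.8 to 76.9%). Loops can count in more than 1 pair, because 1 right end lies on both PRR7 and DBN1 and 1 left end on both PFN3 and F12. The loops from PFN3 to DBN1 are therefore among those from F12.

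GRK6, which encodes a kinase of G protein-coupled receptors and is spanned by these loops, had 1 lost loop of 22 listed (4.55%, 0.807 to 21.8%). F12 was paired with GRK6 in 9 listed loops, and this lost loop was one of them (11.1%, 1.99 to 43.5%). SLC34A1 was paired with GRK6 in 6 listed loops and PFN3 in 3, and none of these was lost.

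Loops with both ends at the 5 genes, 1 of which stayed within DBN1, were lost in 21 of 47 cases (44.7%, 31.4 to 58.8%). Loops with only 1 end at the genes were lost in 4 of 152 cases (2.63%, 1.03 to 6.57%). The genes were chosen because lost loops join them, so this order follows from the choice. Those 4 were the F12 to GRK6 loop and 3 loops from gene-free ends into PRR7. Of the gene-free ends, 1 lies just upstream of SLC34A1 (177375284 to 177380283) and gave 1 lost loop. The other lies just upstream of F12, which is on the minus strand (177413232 to 177418231), and gave 2.

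Loops from PRR7 and DBN1 to genes farther upstream were listed but not classed as lost. PRR7 was paired with RGS14, a regulator of G protein signalling, in 12 loops, with LMAN2, a cargo receptor of the secretory pathway, in 10 and with the MYC-network repressor gene MXD3 in 9. DBN1 was paired with RGS14 in 17 loops, with MXD3 in 12 and with LMAN2 in 8. In the other direction, SLC34A1 was paired with the adaptor gene DOK3 in 11 loops and with the RNA helicase gene DDX41 in 10, and F12 with DOK3 in 4. None of the loops of these 9 pairs was lost or gained.

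Taken end by end, the 25 lost loops formed a block. They use 9 left positions that span 42.9 kb and 6 right positions that span 27.8 kb, with a gap of 22.7 kb between the innermost ends. Of the 54 possible pairs of these ends, 50 were listed, and 25 of those were lost and 25 not conserved. The end at 177450835 to 177455834, inside PRR7, was lost with each of the 9 left ends. With all partners it had 26 listed loops, so its other 17 listed loops, which start outside the 9 left ends, were not lost. The next end along, 177454511 to 177459510, which touches both PRR7 and DBN1, was lost with 5 of 9. The end at 177445920 to 177450919, which holds the PRR7 starts, was lost with 4 of 9.

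On the left side, the end at 177403603 to 177408602, inside F12, was lost with 5 of the 6 right ends. Ends at 177385134 to 177390133 and 177389762 to 177394761, both inside SLC34A1, were lost with 4 of 6 each. Between these and F12, the end at 177394759 to 177399758, which covers the far end of SLC34A1, was lost with 1 of 6. The lost pairs were therefore not a single gradient along the chromosome, since ends with 4 lost pairs lie on both sides of one with 1. The PRR7 antisense transcript PRR7-AS1, a long non-coding RNA, overlaps 2 of the 15 ends and was the only non-coding gene of the annotation at any of them.

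**Figure D2:**
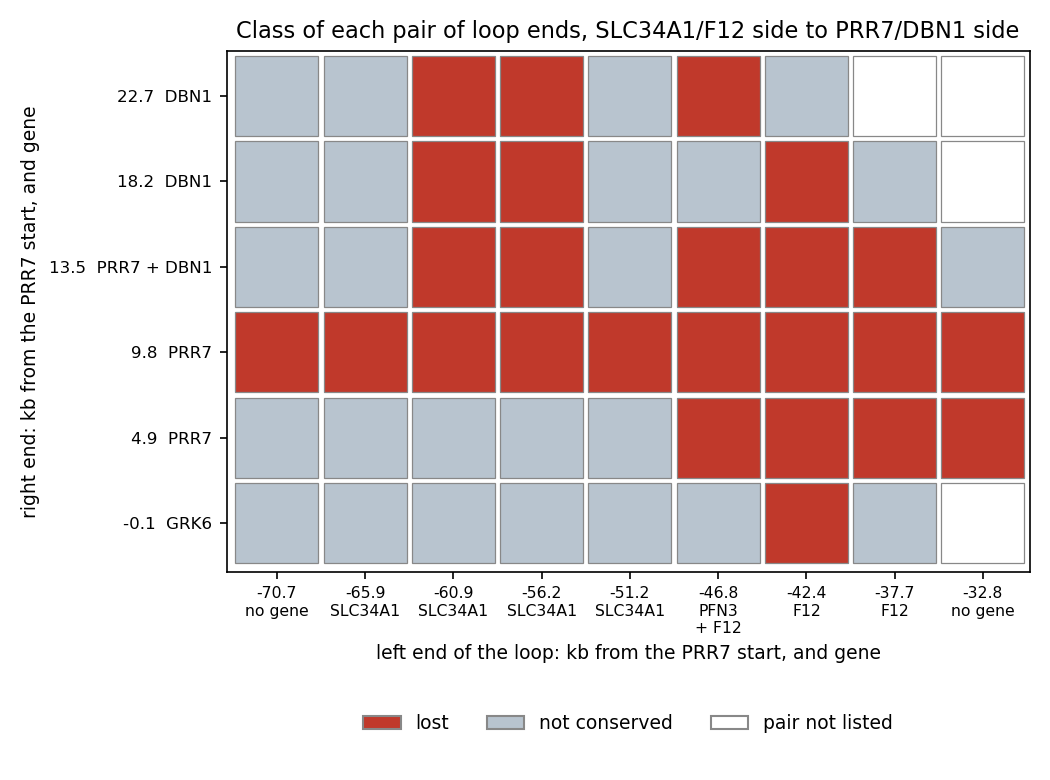
Class of every pair of the 9 left ends (horizontal axis) and 6 right ends (vertical axis) used by the lost loops, each labelled with its listed position in kb from the PRR7 gene body start and the protein-coding gene it overlaps. Each square is 1 pair of ends, and the row of the PRR7 end at 9.8 kb is lost with all 9 left ends.

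Lost loops ended at the starts of F12, SLC34A1 and PRR7 but not at those of DBN1. The F12 start lay at an end of 7 listed loops, of which 3 were lost (42.9%, 15.8 to 74.95%). The SLC34A1 start lay at an end of 13, of which 1 was lost (7.69%, 1.37 to 33.3%). The 3 PRR7 starts share 1 loop end with 21 listed loops, of which 4 were lost (19.0%, 7.67 to 40.0%). Of the 2 DBN1 starts, 1 lay at an end of 33 listed loops and the other at an end of 30, and 0 were lost at either (intervals up to 10.4% and 11.4%). The nearest end of a lost loop was 4.91 kb and 4.12 kb from them. The lost loops at DBN1 therefore end within its body, away from its starts. With 5 kb ends, a distance of this size is about 1 end.

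The lost loops of the cluster were short. They ran from 37.7 to 83.6 kb with a median of 60.6 kb, against a median of 103 kb (9.56 to 286 kb) for the 174 not conserved loops at the same genes. Lost loops elsewhere had a median of 233 kb (50.6 to 906 kb, n = 523). By gene, the median of the lost loops was 52.0 kb at F12, 56.3 kb at PRR7, 58.5 kb at PFN3, 69.7 kb at DBN1 and 74.4 kb at SLC34A1. The corresponding medians of not conserved loops were 69.9, 103, 83.9, 98.2 and 93.0 kb, each longer than the lost ones. The genes were chosen as close neighbours that lost loops join, so these differences follow in part from the choice. Not conserved loops also run outward, and the 26 with both ends at the genes had a median of 74.5 kb. Among pairs of the same 9 and 6 ends, which hold loops of like length, the 25 not conserved loops had a median of 65.8 kb (37.6 to 93.4 kb), close to the lost ones.

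**Figure D3:**
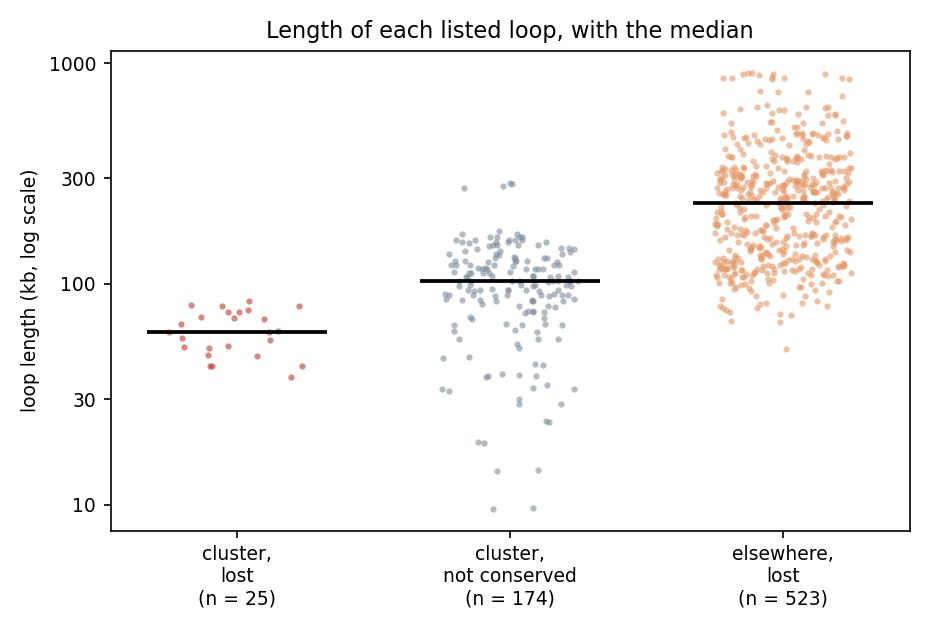
Length in kb (log scale) of each lost loop at the 5 genes, each not conserved loop at the 5 genes, and each lost loop elsewhere in the genome, with black bars at the medians of 60.6, 103 and 233 kb. Points are spread sideways at random, and the lost loops of the cluster all lie below 84 kb. The genes were chosen as close neighbours that lost loops join, which in part bounds this length.

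Few loops of this length were lost anywhere else. Of the 59 loops at the 5 genes that fell in the range set by their own lost loops, 25 were lost (42.4%, 30.6 to 55.1%). In the same range elsewhere, 14 of 23827 listed loops were lost (0.0588%, 0.0350 to 0.0986%) and 429 were gained. At the 5 genes none of 17 shorter loops was lost and none of 123 longer ones, which allows a lost share of up to 17.6% and 2.44% (3 counts). The range was taken from the lost loops, so the absence outside it follows from the choice. The high share inside it also follows in part from the choice of range and of genes.

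Joined where both ends lay within 10 kb of another's, all 25 lost loops fell in 1 region. It ranked second by number of loops among 133 regions of lost loops, after one at TMEM132E on chromosome 17 with 64. The third was the region at the kainate receptor gene GRIK3 with 23 loops, and the fourth that at CYRIA with 22. Of the 28 regions with at least 5 lost loops, none had a shorter median than the cluster's 60.6 kb, and the median over those regions was 195 kb. The cluster's genes were chosen as neighbours that lost loops join, so its short median follows in part from the choice. The GRIK3 loops had a median of 459 kb and the CYRIA loops one of 124 kb. Less of the cluster's block carried the lost class than in most of the 28 regions, but these differ in size. The share is taken between positions set by each region's own lost loops. A region of few loops can therefore reach 100%, as that at ERCC6 and PGBD3 with 6 lost loops did. Lost loops made up 50.0% of the listed loops between the same ranges of left and right positions, compared with 54.8% at GRIK3 and 81.5% at CYRIA, and 25 of the 28 regions, the cluster included, reached at least that share, while 3 were lower.

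**Figure D4:**
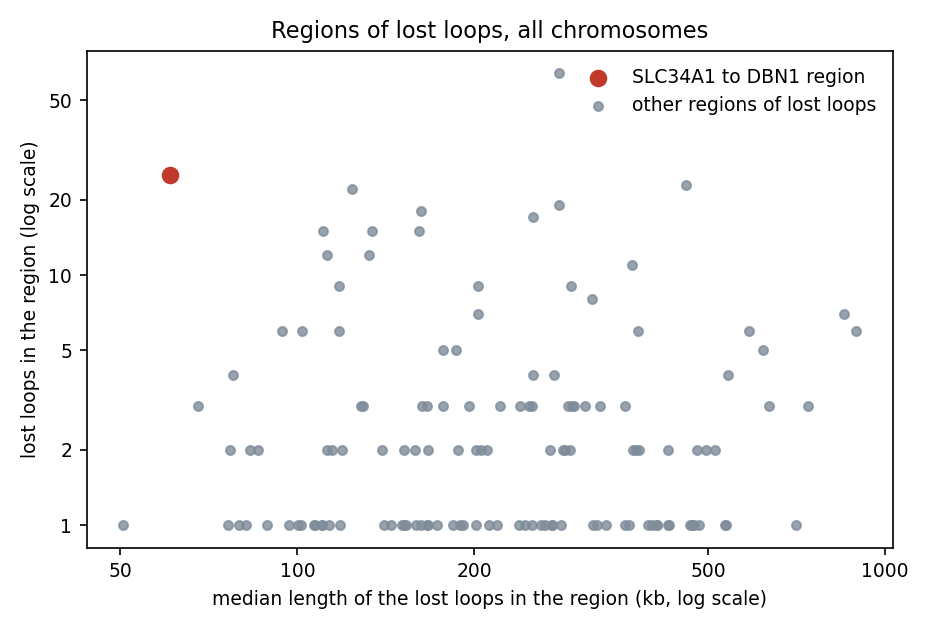
Number of lost loops against their median length in kb (both log scales) for each of the 133 regions of lost loops. The cluster, with 25 loops and a median of 60.6 kb, lies to the left of every other region with at least 5 loops. Its genes were chosen as close neighbours that lost loops join, which bounds this length.

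Genes with roles related to those of the members were also counted. Over the coagulation, phosphate transport, actin-binding and postsynaptic genes, 34 of 49 genes outside the cluster had a listed loop end. Of those 34, 1 had a lost end and 3 had a gained end. Over all 9909 genes the shares were 1.85% and 12.7%, so counts this small say nothing particular about these lists. The lost end was at FGFR4, a receptor for FGF hormones (1 of 26 listed loops), which lies 286 kb upstream of SLC34A1 on the same chromosome. Gained ends were at F3, the tissue factor gene that starts the other arm of clotting (2 of 32), at the actin-nucleating formin gene DIAPH1 (4 of 110) and at the postsynaptic scaffold gene HOMER1 (7 of 22). SLC34A3, a paralogue of SLC34A1, had 94 listed loops with none of either class. The profilin genes PFN1 (3 listed) and PFN2 (19) and the von Willebrand factor gene VWF (110) had none either.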

How the data were processed

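Hi-C data of 3 libraries were used through the loop list the authors deposited (build hg38, from its name). Bowtie, hg19 and hg38 appear in the submitters' processing notes, with no roles. How loops were called, corrected and thresholded is not given in the sources used. Of 279669 rows, 49 had a piece of a number instead of a class and were left out, none of them within the cluster, and 2 repeated rows were dropped. A loop end was taken as the 5 kb inward of its listed position, counting from 1. A gene was counted at an end that its RefSeq body (GRCh38.p14, protein-coding, 19974 genes) overlapped. That table gives no exons, so exon, intron or UTR was not determined. The assignment of loops to genes and the joining of regions were tested on simulated data. Compartment scores from 176.5 to 178.5 Mb were not analysed here, because the 6 per-sample columns of that table carry names that match no sample label. All values were computed with Python 3.11.15, pandas 2.3.3 and scipy 1.17.1. The genes, the gene lists and the comparisons were chosen with earlier results of these data known. The genes named are the members, genes within that window with a gained or lost end, partners of the members, listed genes with such an end, and the 3 genes on either side of F12 by lost share. Others named were chosen after their values were seen.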

Additional observations from a re-analysis of the deposited data

How the results depend on the processing

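The number of lost loops at the 5 genes stayed at 25 with ends read 2.5 or 10 kb inward, centred on the listed position or, an alternative chosen after seeing the data, to the next listed position, and with gene bodies widened by 5 kb. It was 19 without loops shorter than 50 kb and 21 when both ends had to lie at the genes. The share lost was 11.3 to 13.8% under these settings, except with both ends at the genes, where it was 44.7%, since that setting leaves 47 of 199 loops. No gained loop appeared under any of them. The region held 25 loops with joining distances of 5, 10 and 20 kb. Its rank among regions was taken at 10 kb only, and other regions may join at a larger distance. The median length was 60.6 kb, or 69.5 kb without loops shorter than 50 kb. With ends 10 kb inward, 0.105% of genes had a lost share as high as that of F12, against 0.0654%, and 0.270% one as high as that of PFN3, against 0.147% (18 genes in place of 9). Over genes with at least 1 listed loop the F12 value was 0.0404%, 4 of 9909 genes. Of 32 alternative values, the other 28 stayed within 1.5 times a count or a share of genes, the Wilson interval of a share or the quartiles of the lengths. PFN3 and F12 have fewer than 50 listed loops, so their place among genes with at least 50 was not computed. Compartment settings were not run. No paired analysis was possible because the classes come without values per library, and no group has a replicate.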

Other observations

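In the window of chromosome 5 around the cluster, 543 loops were listed, of which 28 were lost and 25 gained. The 3 lost loops outside the cluster run 221 to 226 kb from ZNF346, a zinc finger gene, and FGFR4 to RAB24, PRELID1, MXD3 and the end of the histone methyltransferase gene NSD1. Their last end lies 78.8 kb before SLC34A1. RAB24, a small GTPase gene, had 3 lost of 24 listed loops (12.5%, 4.34 to 31.0%), a share above the 11% of DBN1. PRELID1, a mitochondrial lipid transfer gene, had 2 of 28 (7.14%) and MXD3 had 2 of 41 (4.88%). NSD1 had 1 of 30.

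All 25 gained loops start at 176651042 to 176665506, at or just past the tetraspanin gene TSPAN17 (16 gained of 76 listed loops), and run 310 to 467 kb. A total of 11 end at ZNF346, which had 11 gained and 2 lost of 47 listed loops. UIMC1, a DNA damage response gene, had 2 gained of 101. The nearest gained end lay 262 kb before SLC34A1. Of the 34 protein-coding genes in this window that are not members, 23 had a listed end, 7 a lost end and 3 a gained end. Over all 9909 genes with a listed end, 1.85% had a lost end and 12.7% a gained end. Of the 7, 1 was GRK6, whose lost loop is the F12 to GRK6 loop of the cluster. The others share the 3 lost loops outside the cluster, so these genes are not independent. COL23A1, a collagen gene on the far side of the cluster, had 81 listed loops and none of either class.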
